A study of Mus musculus with 6 samples.

Results

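The proteasome genes were taken as every protein-coding gene whose symbol starts with Psma, Psmb, Psmc, Psmd, Psme, Psmf or Psmg followed by a digit, which gave 50 of the 21780 genes in the count table. They were measured by RNA-Seq of CD45+CD11b+ cells sorted from the mouse pancreas, CD45 being the surface marker of white blood cells and CD11b that of myeloid cells. The mice were wild-type C57BL/6, male and female and 6 to 8 weeks old by the study's methods, and had received either PBS (3 libraries) or 1 mg of WGP (3 libraries) by intraperitoneal injection 7 days earlier. WGP are whole glucan particles, the β-glucan shells of yeast cell walls. By the study's description each library came from its own animal, within 1 experiment, so the p-values measure the spread between animals of that experiment.

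The proteasome is the barrel-shaped protease that degrades ubiquitin-tagged proteins. Its core is built of outer alpha rings and inner beta rings, and 3 of the beta subunits, encoded by Psmb5, Psmb6 and Psmb7, carry the active sites. In immune cells and under interferon, Psmb8, Psmb9 and Psmb10 are made and take those places in newly assembled cores, which gives the immunoproteasome, known for producing peptides that fit MHC class I. The core is capped either by the regulatory particle (Psmc ATPases and Psmd non-ATPase subunits), which handles ubiquitin-tagged proteins, or by the PA28 ring of Psme1 and Psme2, which is also interferon-inducible and opens the core without ATP.

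Psmb8 (chr17:34197721-34201454, plus strand) and Psmb9 (chr17:34181987-34187764, minus strand) are neighbours in the MHC region of GRCm38, while Psmb10 is at chr8:105935735-105938444 (minus strand). The PA28 genes Psme1 (chr14:55578123-55581529, plus strand) and Psme2 (chr14:55587441-55591113, minus strand) lie close together. The constitutive catalytic genes Psmb5 (chr14:54614119-54618022, minus strand), Psmb6 (chr11:70525367-70527858, plus strand) and Psmb7 (chr2:38588036-38644087, minus strand) are apart. The RefSeq windows around transcription starts were searched for 5 short motifs on both strands, and the 30 bases around a match are shown for the members on which the comparison of immune and constitutive subunits turns. They are RefSeq sequence of GRCm38.p6, written 5′ to 3′ on the gene's strand, with the motif match in capitals.

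Psmb8, GAS letters TTCNNNGAA, chr17:34198088-34198117: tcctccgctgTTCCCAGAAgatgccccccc
Psme1, ISRE letters read on the other strand, chr14:55578493-55578522: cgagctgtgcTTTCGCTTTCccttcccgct
Psmb9, NF-Y letters CCAATC read on the other strand, chr17:34187322-34187351: cgcgcagccgctGATTGGaaagccgagccc
Psmb5, antioxidant-type letters TGACNNNGC, chr14:54618023-54618052: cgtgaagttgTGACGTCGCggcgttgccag
Psmb6, antioxidant-type letters TGACNNNGC, chr11:70525338-70525367: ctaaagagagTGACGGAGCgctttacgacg

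The ISRE letters searched were GAAA, any 2 bases and GAAA, and the NF-kB letters were GGGA, any 2 bases and TTCC. GAS and ISRE are classical letters of interferon-responsive genes, and TGACNNNGC is the core read by the NRF1 and NRF2 factors. In the GENCODE annotation, the stretches of Psmb8, Psmb9 and Psme1 lie in a 5′ exon, annotated as UTR, of at least 1 transcript of the gene. That of Psmb6 touches the first exon of a retained-intron transcript, and that of Psmb5 overlaps no annotated feature. RefSeq windows were found for 42 of the 50 members, 45 windows in all. Among them ISRE letters were in 5 windows (11.1%, against 3.44% of all 32851 mouse windows), GAS letters in 3 (6.67% against 8.3%), TGACNNNGC in 6 (13.3% against 12.4%), the NF-Y letters in 9 (20% against 16.1%) and the NF-kB letters in 1 (2.22% against 1.47%). Of Psmb8, Psmb9, Psmb10, Psme1 and Psme2, which have 6 windows, 1 gene had GAS letters, 1 had ISRE letters, 1 had NF-Y letters and 0 had the others. Both constitutive catalytic genes with a window, Psmb5 and Psmb6, had TGACNNNGC. None of the 5 printed windows held a match to a second motif of the set. These matches describe the letters in a window and are not evidence of binding.

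Library totals were between 35334645 and 43341834 counts. Transcripts of the Y-linked genes Ddx3y, Uty, Kdm5d and Eif2s3y summed to 8972 and 10063 counts in PBS 2 and PBS 3. They summed to 0 in PBS 1, WGP 1 and WGP 2, and to 1 in WGP 3. These transcripts thus differed among the PBS libraries and, apart from that 1 count, were found in no WGP library. The labels do not give the sex of the animals, and the main test did not separate a difference in sex from the treatment. The sorted cells also differed in their markers. Summed over each list and expressed as TMM-scaled CPM, a level per sequencing depth, 6 myeloid markers ran from 9012 to 14742 in PBS and from 21464 to 22752 in WGP, with 4 of the 6 higher. Markers of Ly6C-high monocytes ran from 699 to 1147 and from 3157 to 3561 (4 of 6 higher), and those of resident macrophages from 3348 to 8828 and from 458 to 639 (6 of 6 lower). B cell markers ran from 361 to 2414 (highest in PBS 1) and from 86.8 to 169 (5 of 5 lower), and acinar markers from 1107 to 4217 (highest in PBS 2) and from 266 to 472 (7 of 8 lower). Genes of the dissociation response, such as Jun and Egr1, ran from 14550 to 20460 in PBS and from 5008 to 6583 in WGP (5 of 6 lower, Fos not past the test). Fibroblast markers such as Col3a1 summed to 80.7 to 171 in PBS and ran from 33.7 to 1803 in WGP, where WGP 2 stood apart from the others (0 of 5 past the test). Neutrophil markers ran from 1227 to 3746 in PBS and from 1856 to 1951 in WGP (1 of 6 higher), NK markers from 53.9 to 216 and from 41.4 to 54.7 (2 of 6 lower), and conventional dendritic cell markers from 235 to 249 and from 105 to 197 (1 of 6 lower). Summed T cell, islet, eosinophil and endothelial markers were at most 116 in any library (1 of 5 T cell markers, Cd8a, and 1 of 4 endothelial markers, Kdr, were higher in WGP, and 0 of 5 islet and 0 of 5 eosinophil markers passed), and the cell division genes ran from 144 to 349 and from 198 to 220 (0 of 5 past the test). No marker in the table was at 0 in every library, and the part of these lists in the results below was not tested. In bulk samples like these, fewer cells of a type and less RNA per cell cannot be told apart.

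Of the 50 members, 49 passed the filter on low counts. Psmb11, the beta subunit of the thymic cortex, did not, with 1 count in PBS 3 and 0 in every other library. With edgeR's quasi-likelihood test and Benjamini-Hochberg adjustment over all 14429 genes tested, 8 of the 49 members were higher in WGP at an adjusted p of at most 0.05 and a log2 fold change of at least 1, against 4.53% of all genes. At the adjusted p alone 17 were higher, against 7.54% of all genes. Without WGP 2 these counts were 7 and 12, without PBS 2 they were 7 and 10, and without PBS 1 they were 8 and 19. 0 members were lower by either rule (4.96% and 6.81% of all genes were). In 30 members every WGP library was above every PBS library, against 16.0% of all genes, and in 1 every WGP library was below, against 16.1%. The median log2 fold change of the members was 0.43, from -0.72 to 1.86, with 43 above 0 and 6 below, while the median over all genes tested was -0.05. WGP 2 was the highest of the WGP libraries in 36 of the 49 members (73.5%, against 36.4% of all genes), and PBS 1 the highest of PBS in 26 (53.1%, against 40.5%). Reads of all members summed to 2959 ± 238 CPM in PBS and 4864 ± 397 in WGP (SD, n = 3).

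**Figure D1:**
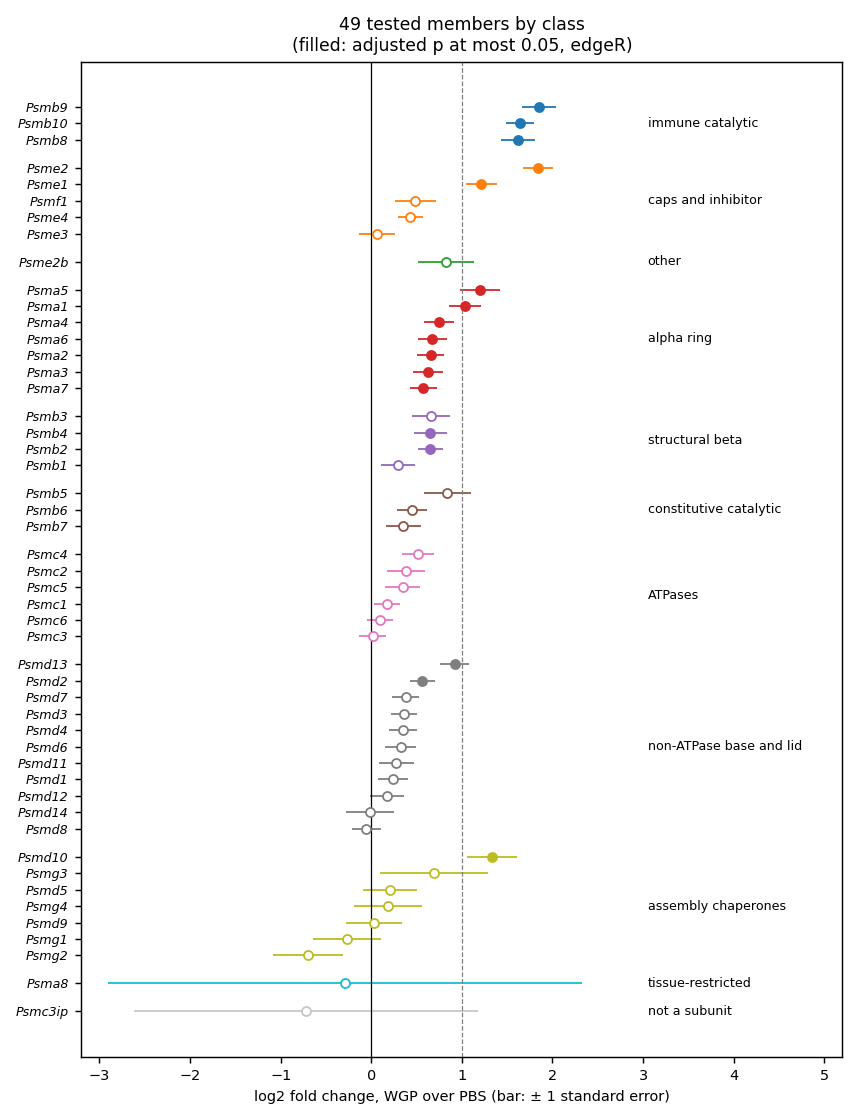
The log2 fold change of WGP over PBS (horizontal axis, bar: 1 standard error) for each of the 49 tested members, grouped by class, with filled points for an adjusted p of at most 0.05 and a dashed line at 1. The immune catalytic genes, Psme2 and Psme1 lie to the right of the dashed line, the alpha ring between 0.58 and 1.20, and the ATPases between 0.015 and 0.52.

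The immune catalytic genes rose by log2 fold changes between 1.62 and 1.86 (3 of 3 called, against 4.53% of all genes called higher). Psmb9, the immune counterpart of Psmb6, had 81.9, 64.8 and 50.02 CPM in PBS 1, 2 and 3 and 223, 248 and 240 in WGP 1, 2 and 3. Its log2 fold change was 1.86 (SE 0.19, edgeR adjusted p = 0.000137). All WGP values were above the highest PBS value, that of PBS 1.

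Psmb10, the counterpart of Psmb7, had 67.9, 74.0 and 73.3 CPM in PBS and 191, 262 and 219 in WGP, a log2 fold change of 1.64 (SE 0.16, edgeR adjusted p = 9.61e-05). The PBS libraries were close together here, and the WGP libraries did not overlap with them. Psmb8, the counterpart of Psmb5, had 204, 156 and 134 CPM in PBS and 440, 577 and 505 in WGP, a log2 fold change of 1.62 (SE 0.19, edgeR adjusted p = 0.000286). Again the groups did not overlap, and PBS 1, the library with the most B cell marker reads, was the highest of PBS for Psmb8 and Psmb9 but the lowest for Psmb10. Without PBS 1 the log2 fold changes of Psmb8, Psmb9 and Psmb10 were 1.80, 2.05 and 1.604, and without WGP 2 they were 1.52, 1.82 and 1.52, all still called. Psmb8 shares 498 exon bases with the opposite-strand gene Gm20496, and the strand setting of the counting is not given in the sources used here.

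None of the constitutive catalytic genes passed the adjusted threshold, while 7.54% of all genes were higher by it. All were higher on average, with a median log2 fold change of 0.45. Psmb5, the subunit with chymotrypsin-like activity, had 31.5, 16.6 and 24.1 CPM in PBS and 40.5, 37.5 and 51.2 in WGP (log2 fold change 0.84, SE 0.26, edgeR adjusted p = 0.0578). Its groups did not overlap, and without PBS 1 its log2 fold change was 1.08 with an edgeR adjusted p of 0.0160. It was 0.63 (edgeR adjusted p = 0.175) without PBS 2 and 0.45 (edgeR adjusted p = 0.442) with the Y-linked covariate. Psmb6, with caspase-like activity, had 101, 84.2 and 75.6 CPM in PBS and 101, 130 and 124 in WGP (0.45, SE 0.17, edgeR adjusted p = 0.112), with WGP 1 just above PBS 1. Without PBS 1 the log2 fold change of Psmb6 was 0.57 (edgeR adjusted p = 0.0427), and with the Y-linked covariate it was 0.23 (edgeR adjusted p = 0.570). Psmb7, with trypsin-like activity, had 58.3, 67.6 and 47.3 CPM in PBS and 63.6, 87.5 and 70.0 in WGP (0.35, SE 0.19, edgeR adjusted p = 0.289), and its groups overlapped. Psmb7 shares 405 exon bases with the opposite-strand gene Nek6. For these 3 genes a p above the threshold does not show that their levels were equal in the groups.

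**Figure D2:**
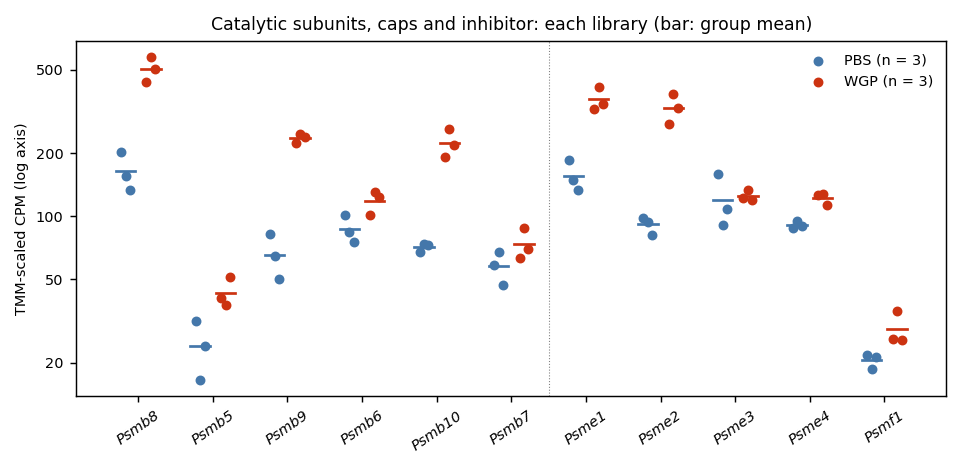
Level in each library (TMM-scaled CPM, log axis) of the catalytic subunits and of the caps and inhibitor, PBS in blue and WGP in red, with a bar at the group mean. The WGP points of Psmb8, Psmb9, Psmb10, Psme1 and Psme2 lie above all PBS points, while those of Psmb7 and Psme3 overlap with PBS.

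Each immune subunit was also compared with the constitutive one it replaces within a library, as its share of the reads per kilobase of exon of both, a ratio that needs no scaling between libraries. The share of Psmb9 in Psmb9 and Psmb6 was 29.3%, 28.2% and 25.3% in PBS and 52.9%, 49.3% and 49.7% in WGP, a rise of 23.1 percentage points on the means. The share of Psmb10 in Psmb10 and Psmb7 was 70.0%, 68.7% and 75.7% in PBS and 85.8%, 85.7% and 86.3% in WGP, a difference of 14.5 points. The share of Psmb8 in Psmb8 and Psmb5 was 63.2%, 71.5% and 59.6% in PBS and 74.3%, 80.3% and 72.4% in WGP, a difference of 10.9 points. In all 3 pairs every WGP library was above every PBS library, although PBS 2 at 71.5% came near to WGP 3 at 72.4% for Psmb8. The two-sided exact permutation test gave p = 0.1 for each (adjusted p = 0.1 over the 5 ratios tested), which is the smallest that 3 against 3 libraries allow. The shares depend on the length chosen: per coding length, Psmb9's mean share was 44.7% in PBS and 68.6% in WGP, Psmb10's 56.0% and 75.5%, and Psmb8's 86.7% and 91.8%. Psmb5 shared 32.9% of its 75-base windows with the annotated gene Gm3375, so its reads are uncertain where they could not be placed.

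**Figure D3:**
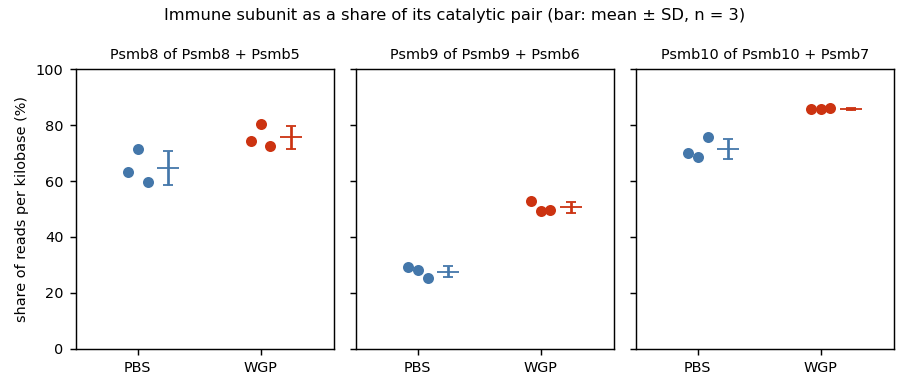
Share of the immune subunit in the reads per kilobase of its catalytic pair (%, vertical axis from 0 to 100) in each library, with the mean ± SD of 3 libraries beside the points. For Psmb9 and Psmb6 the mean was 27.6% in PBS and 50.7% in WGP.

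The immune catalytic genes took 10.2% ± 0.95 of all member reads in PBS and 19.9% ± 0.88 in WGP (SD, n = 3). The caps and inhibitor went from 16.1% ± 0.88 to 19.8% ± 0.68 and the alpha ring from 13.5% ± 1.71 to 13.7% ± 0.08. The ATPases went from 13.8% ± 0.75 to 9.86% ± 0.12 and the non-ATPase subunits from 28.3% ± 0.25 to 21.2% ± 1.501. Shares within a sum fall when another part of the sum rises, and the summed level of the ATPases itself was 408 ± 25.1 CPM in PBS and 479 ± 34.0 in WGP.

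**Figure D4:**
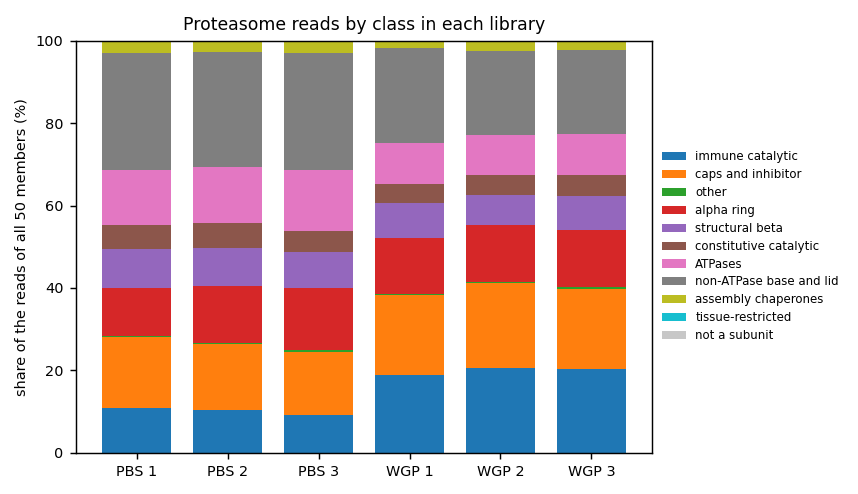
Share of the reads of all 50 members (%, stacked to 100) taken by each class in each library. The immune catalytic band averaged 10.2% in PBS and 19.9% in WGP.

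Among the caps, both PA28 genes rose and Psme3 did not pass the test. Psme2, the PA28 beta subunit, had 98.5, 94.3 and 81.7 CPM in PBS and 274, 382 and 329 in WGP (log2 fold change 1.84, SE 0.17, edgeR adjusted p = 6.43e-05). Psme1, the PA28 alpha subunit, had 185, 148 and 133 CPM in PBS and 325, 415 and 345 in WGP (1.22, SE 0.17, edgeR adjusted p = 0.000970). Neither gene's groups overlapped, and WGP 2 was the highest library for both. Without WGP 2 the log2 fold changes were 1.72 and 1.11, and both genes were still called. With the Y-linked counts as a covariate the log2 fold change of Psme1 was 0.96, under the threshold of 1, while its adjusted p still passed.

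The reads of Psme2 per read of Psme1 were 0.531, 0.635 and 0.614 in PBS and 0.845, 0.920 and 0.953 in WGP, so the partners of this ring did not move by the same factor. Psme2 shared 22.9% of its 75-base windows with Psme2b, a near-identical copy on another chromosome that shared 60.2% of its own windows with Psme2, so reads could be split between them. Psme2b had 8.32, 10.3 and 13.5 CPM in PBS and 17.1, 22.8 and 16.96 in WGP (log2 fold change 0.82, SE 0.30, edgeR adjusted p = 0.110).

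Psme3, which forms the nuclear PA28 gamma ring, had 159, 91.1 and 109 CPM in PBS and 122, 133 and 120 in WGP (log2 fold change 0.063, SE 0.20, edgeR adjusted p = 0.895). PBS 1 was above all WGP libraries and the other two PBS libraries below them, and the sign of the change depended on the scaling: it was -0.053 with library totals alone. Psme4, the PA200 cap known from chromatin and spermatogenesis, had 88.3, 95.0 and 89.9 CPM in PBS and 127, 128 and 113 in WGP (0.43, SE 0.14, edgeR adjusted p = 0.0639). Psmf1, an inhibitor of the core, had 21.9, 18.7 and 21.4 CPM in PBS and 26.1, 35.2 and 25.6 in WGP (0.49, SE 0.23, edgeR adjusted p = 0.205). The groups of Psme4 and Psmf1 did not overlap, but neither gene passed the test.

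Within each library the log2 ratio of Psme2 to Psme3 per kilobase of exon was 0.051, 0.79 and 0.33 in PBS and 1.91, 2.26 and 2.20 in WGP. That of Psme1 to Psme3 was 0.64, 1.12 and 0.71 in PBS and 1.83, 2.06 and 1.95 in WGP. The differences of the means were 1.73 and 1.12, each with a two-sided exact permutation p = 0.1, again the smallest possible. Against the median of the 17 Psmc and Psmd subunits of the regulatory particle, Psme2 was at a log2 ratio of 1.29, 1.52 and 1.21 in PBS and of 2.53, 3.18 and 2.88 in WGP. Psme1 was at 1.88, 1.85 and 1.59 in PBS and at 2.45, 2.97 and 2.62 in WGP, with no test for these 2 scores.

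Of the 17 tested subunits of the regulatory particle, 0 were called higher, against 4.53% of all genes, and 0 lower, against 4.96%. At the adjusted p alone 2 were higher, against 7.54% of all genes. Their median log2 fold change was 0.32. 0 of the 6 ATPases, which unfold the substrate, passed the test. Among them Psmc4 had the largest fold change, with 51.4, 47.6 and 56.9 CPM in PBS and 71.5, 88.9 and 62.6 in WGP (0.52, SE 0.18, edgeR adjusted p = 0.0877). Psmc3 had the smallest, with 118, 102 and 95.5 CPM in PBS and 95.0, 112 and 112 in WGP (0.015, SE 0.15), and its sign changed to -0.016 with upper-quartile scaling and to -0.093 with library totals. In 2 of the 6 ATPases every WGP library was above every PBS library, against 16.0% of all genes. In 0 every WGP library was below, against 16.1%.

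Among the 11 non-ATPase subunits, Psmd13 and Psmd2 passed the adjusted p. Psmd13, a lid subunit, had 33.4, 38.9 and 37.4 CPM in PBS and 69.0, 70.5 and 68.4 in WGP (log2 fold change 0.92, SE 0.16, edgeR adjusted p = 0.00327), so its WGP libraries were close to each other and well above PBS. It shares 342 exon bases with the opposite-strand gene Sirt3. Psmd2, a scaffold subunit of the base, had 135, 115 and 137 CPM in PBS and 190, 201 and 181 in WGP (0.56, SE 0.14, edgeR adjusted p = 0.0223), and it missed the threshold in 6 of 15 alternatives, among them leaving out PBS 2 or any 1 of the WGP libraries. Psmd8, with the smallest fold change, had 194, 178 and 139 CPM in PBS and 162, 180 and 150 in WGP (-0.054, SE 0.16, edgeR adjusted p = 0.887). Psmd14, the deubiquitinating subunit, had 87.1, 45.5 and 42.5 CPM in PBS and 54.2, 64.4 and 54.3 in WGP, and its PBS 1 value was the highest of the 6, with the other PBS values below all WGP values.

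All 7 alpha ring genes were higher at the adjusted p, against 7.54% of all genes, with log2 fold changes from 0.58 to 1.20. In all 7 every WGP library was above every PBS library, against 16.0% of all genes. Psma5 had 15.3, 21.4 and 19.8 CPM in PBS and 41.8, 49.7 and 38.5 in WGP (log2 fold change 1.20, SE 0.22, edgeR adjusted p = 0.00423). Psma1 had 47.6, 54.4 and 69.4 CPM in PBS and 105, 123 and 123 in WGP (1.03, SE 0.18, edgeR adjusted p = 0.00301). These 2 were called, while the other 5 lay between 0.58 (Psma7) and 0.75 (Psma4). Psma7, with the smallest fold change of the ring, had 85.1, 94.6 and 103 CPM in PBS and 126, 152 and 144 in WGP (SE 0.15, edgeR adjusted p = 0.0255). The log2 fold change of Psma1 was under the threshold of 1 in 5 of 15 alternatives, at 0.92 without PBS 1, 0.94 with library totals alone, 0.999 without PBS 2, 0.997 without WGP 2 and 0.993 without WGP 3. Psma1 and Psma5 passed the adjusted p in all 15 alternatives, but Psma3 missed it in 8, Psma6 in 5, Psma7 in 4, Psma2 in 2 and Psma4 in 1. Without PBS 2 the adjusted p of edgeR was 0.118 for Psma3, 0.0828 for Psma6, 0.0937 for Psma7 and 0.0668 for Psma4. Psma5 shared 21.2% and 20.5% of its 75-base windows with the annotated genes Gm8394 and Gm12989, and Psma3 shared 14.3% with Gm13835. The testis-type alpha subunit Psma8 was near the limit of detection, with 0, 1.57 and 0.37 CPM in PBS and 0.73, 0.84 and 0 in WGP.

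The structural beta genes, which hold the inner rings together without active sites, had a median log2 fold change of 0.65. None was called higher, against 4.53% of all genes. Psmb2 and Psmb4 passed the adjusted p (edgeR adjusted p = 0.0108 and 0.0380), but missed it without PBS 2 (0.0604 and 0.150), and Psmb4 missed it in 7 of 15 alternatives: without PBS 2, PBS 3 or any 1 of the WGP libraries, with library totals alone, and with the Y-linked covariate, where its log2 fold change was 0.32. Psmb3 had the largest fold change, with 31.3, 27.3 and 31.2 CPM in PBS and 37.7, 45.1 and 59.0 in WGP (0.66, SE 0.21, edgeR adjusted p = 0.0652). Psmb1 had the smallest, with 113, 110 and 70.5 CPM in PBS and 118, 117 and 125 in WGP (0.29, SE 0.19, edgeR adjusted p = 0.367). In all 4 genes the WGP libraries were above the PBS libraries, against 16.0% of all genes.

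Of the 7 assembly chaperones 1 was called higher, against 4.53% of all genes. Psmd10, also named gankyrin and located on the X chromosome, had 16.96, 13.7 and 11.8 CPM in PBS and 25.7, 46.5 and 34.3 in WGP (log2 fold change 1.33, SE 0.28, edgeR adjusted p = 0.00859). With the Y-linked counts as a covariate, a fit that rests on PBS 1 for the comparison, its log2 fold change was 1.07 and its edgeR adjusted p 0.114. Psmg2, a chaperone of the alpha ring, had 12.6, 10.4 and 11.1 CPM in PBS and 4.94, 9.69 and 6.40 in WGP (-0.70, SE 0.39, edgeR adjusted p = 0.298), and was the only tested member whose WGP values all lay below the lowest PBS value. Psmc3ip matches the symbol rule without being a proteasome subunit and had at most 1.66 CPM in any library.

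Per kilobase of exon, the order of the members' levels differed between the groups. In PBS the highest mean was that of Psme1, at 70.5 ± 12.2 RPKM, reads per kilobase of exon scaled to depth (SD, n = 3), followed by Psmb2 at 57.7 ± 4.88, Psmd8 at 55.8 ± 9.29, Psme2 at 51.9 ± 4.94 and Psmb8 at 48.7 ± 10.6. The intervals of 1 SD of neighbours in this order overlapped. In WGP the first 4 were Psme2 at 186 ± 30.4 RPKM, Psme1 at 164 ± 21.3, Psmb8 at 150 ± 20.2 and Psmb10 at 131 ± 20.8, which overlap with their neighbours in the same way, and Psmb2 followed at 90.5 ± 1.02, outside the interval of Psmb10. Psmb9 was 27th in PBS at 17.9 ± 4.36 RPKM and 7th in WGP at 64.8 ± 3.55, while per coding length it was 11th in PBS and 4th in WGP. Per coding length the order in WGP was Psmb8 1st, Psme1 2nd, Psme2 3rd, Psmb9 4th and Psmb10 5th, so their rank depends on the length while their place among the first 7 does not.

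**Figure D5:**
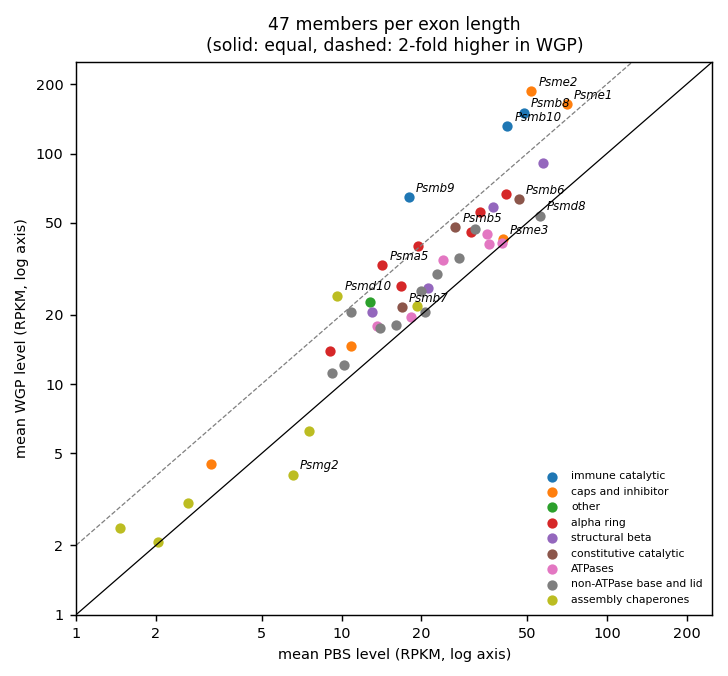
Mean level in PBS (horizontal) and WGP (vertical) in RPKM (log axes) for the 47 members above 1 RPKM in WGP, coloured by class, with lines at equality and at a 2-fold difference. Psme2 was at 51.9 RPKM in PBS and 186 in WGP, and Psmb9 at 17.9 and 64.8.

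Other genes of the pathway were described from lists. Of the 5 regulators of the immune subunits, 5 were higher in WGP at the adjusted p, against 7.54% of all genes. Among them were the transcription factors Irf1 (log2 fold change 2.30, SE 0.24) and Irf2 (0.96, SE 0.15), and Nlrc5, the activator of class I genes (2.20, SE 0.17). Of the 5 regulators of the constitutive subunits, 1 was higher at the adjusted p, against the same 7.54% of all genes. It was Nfe2l2, the NRF2 factor, with 188, 228 and 249 CPM in PBS and 657, 576 and 493 in WGP (1.38, SE 0.17, edgeR adjusted p = 0.000411). Ddi2, the protease that processes NRF1, was at 0.46 (SE 0.14, edgeR adjusted p = 0.0595). Ngly1 and Vcp, which act on the same factor, were at -0.23 and 0.24.

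Of the 11 genes of class I peptide loading, 8 were higher at the adjusted p and 0 lower, against 7.54% and 6.81% of all genes. Their median log2 fold change was 1.11. The peptide transporter genes Tap1 and Tap2 were at 2.21 (SE 0.20) and 1.52 (SE 0.18), and the loading factors Tapbpl and Tapbp at 1.63 and 1.497. Tap1 shares 212 exon bases with Psmb9 on the opposite strand, which covers 3.44% of the 75-base windows of Psmb9.

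Of the 14 tested proteasome partners without a Psm symbol, 1 was higher and 0 lower at the adjusted p, against 7.54% and 6.81% of all genes. Their median log2 fold change was -0.02. That 1 was Pomp, the assembly factor of the core, with 80.6, 73.6 and 67.6 CPM in PBS and 113, 137 and 123 in WGP (0.75, SE 0.15, edgeR adjusted p = 0.00701, and 0.0735 with the Y-linked covariate). Of the 5 tested ubiquitin genes and E1 enzymes, 2 were higher at the adjusted p, against 7.54% of all genes. They were Uba7, which activates the ubiquitin-like ISG15, and Uba1, which activates ubiquitin (0.86 and 0.58). Uba1 missed the threshold without PBS 2 or WGP 3, and Uba7 with the Y-linked covariate. The polyubiquitin gene Ubb was lower (log2 fold change -0.72, edgeR adjusted p = 0.00496). Of the dissociation genes given above, 5 of 6 were lower in WGP.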

How the data were processed

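The authors sorted CD45+CD11b+ pancreas cells, sequenced polyA RNA, aligned single-end reads with STAR 2.6 to mm10 (GRCm38.p6) and counted them with HTSeq 0.10.0. The authors deposited raw counts per gene in 1 table, between 35334645 and 43341834 per library. The annotation release, strand setting and treatment of duplicates were not given in the sources used here. Coordinates, exon lengths and overlaps are from GENCODE vM21.

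The 14429 protein-coding genes that reached a sum of 10 RLE-normalized counts across the 6 libraries were tested for WGP against PBS with edgeR 4.0.16 (TMM scaling, quasi-likelihood test, Benjamini-Hochberg adjustment) in R 4.3.3. A gene was called when its adjusted p did not exceed 0.05 and its log2 fold change was 1 or more in either direction. Within-library ratios were compared by two-sided exact permutation tests.

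The members and the lists were chosen with earlier results of these data known. Values in every library are given for the catalytic subunits, caps, inhibitor, called members and the extremes of each other class, and up to 4 genes of each pathway list are named by smallest p. Psmd2, Psmd14, Psma8, Psmc3ip and Psme2b were named in addition, after their values were seen. Alternatives were DESeq2 1.42.0, limma-voom 3.58.1, other scalings and filters, a fold threshold of 0.58, a replicate block, Y-linked counts as a covariate, coding lengths and leaving out each library. Some genes of the pathway lists are not reported here.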

Additional observations from a re-analysis of the deposited data

How the results depend on the processing

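Under all 15 alternatives each, Psmb8 (log2 fold change 1.32 to 1.80), Psmb9 (1.53 to 2.05), Psmb10 (1.52 to 1.75), Psme1 (0.96 to 1.36) and Psme2 (1.72 to 1.96) stayed higher in WGP past the adjusted p. The members called higher, 8 in the report, were 15 with the fold threshold lowered to 0.58 on the log2 scale, and 7 to 8 when a library was left out. Members past the adjusted p higher in WGP, 17 in the report, were 11 with Y-linked counts as a covariate, and 10 to 19 when a library was left out (10 without PBS 2, the library with the most acinar marker reads). Members called lower were 0 in all of them. The cause was not tested. No pairing of the samples by replicate number was seen (same-number correlations of deviations from the group means 0.02, -0.06 and 0.04). Whether samples were handled in pairs is not stated in the sources used here. With a replicate block, Psmb5 passed the threshold (0.88, edgeR adjusted p = 0.0431) and Psma3 missed it (0.63, edgeR adjusted p = 0.0568). Psmb5 also passed with DESeq2 (adjusted p = 0.0434) and limma-voom (adjusted p = 0.0475). The sign of small fold changes reversed for Psmc3 (-0.016 with upper-quartile scaling, -0.093 with library totals, -0.15 with the Y-linked covariate, and -0.049 to 0.10 when a library was left out), Psme3 (-0.053 with library totals, -0.35 with the Y-linked covariate, and -0.10 to 0.32 when a library was left out, below 0 without PBS 2), Psmd8 (-0.18 to 0.047 when a library was left out, above 0 without PBS 1 or WGP 3) and Psma8 (7.39 with the Y-linked covariate, and -0.88 to 1.503 when a library was left out, above 0 without PBS 2 or WGP 3). Library totals alone moved the median of all genes from -0.05 to -0.16. Low members such as Psma8 are limited by counts.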
